A study of Mus musculus with 13 samples.

Results

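The open chromatin of loop of Henle (LOH) nuclei was compared with that of distal convoluted tubule (DCT) nuclei of the adult mouse kidney by single-nucleus ATAC-seq (snATAC-seq), an assay in which Tn5 transposase cuts and tags accessible DNA in isolated nuclei. Nuclei were taken by the cluster names of the deposited annotation, and 3183 of 28316 annotated nuclei, out of 16887 from adult samples, belonged to either cluster in the adult samples. There were 2341 LOH nuclei, with 394 in P21 sample 1, 1042 in P56 sample 1 and 905 in P56 sample 2. The same samples held 101, 307 and 434 DCT nuclei, 842 in all. The series profiled whole mouse kidneys at postnatal day 0 (P0), at 3 weeks (P21) and at 8 weeks (P56), and P21 and P56 were treated together as adult, as the study did. The labels name no strain, genotype or treatment for the snATAC-seq samples and do not tell whether a sample is 1 animal or several. The p-values therefore refer to the spread between samples. Their estimate of that spread is shared by edgeR over peaks or over genes, so it is mostly not that of the single peak or gene. A called peak need not keep its direction in all samples, as counted below.

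The thick ascending limb of the loop of Henle takes up sodium, potassium and chloride from the urine without water, and it carries calcium and magnesium back between its cells. The distal convoluted tubule follows it, takes up sodium with chloride under the control of WNK kinases, and sets how much magnesium is lost in the urine. The clinically used loop diuretics and thiazides act on the chloride cotransporters of these 2 segments, encoded by Slc12a1 and Slc12a3.

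To show the DNA behind the comparison, the centres of the peaks over the start sites of Slc12a1, Umod and Slc12a3 are given, since their proteins define these segments. A peak here is a region in which the authors found pooled nuclei of a cell type to be accessible. Each run is written 5′ to 3′ on the plus strand of mm10 (GRCm38), and capitals mark matches to the motifs searched on both strands, which are a forkhead motif (TGTTTAC), the NFI half-site TTGGCAG with a steroid receptor half-site read on the minus strand, and an AP-2 motif (GCCNNNGGC), in this order. The first lies at chr2:125152293-125152492, the second at chr7:119479427-119479626 and the third at chr8:94329064-94329200.
Slc12a1 start site: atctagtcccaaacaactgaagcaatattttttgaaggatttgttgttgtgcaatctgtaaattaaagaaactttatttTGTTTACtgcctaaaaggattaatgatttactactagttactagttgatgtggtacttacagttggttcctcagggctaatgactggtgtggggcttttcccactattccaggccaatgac
Umod start site: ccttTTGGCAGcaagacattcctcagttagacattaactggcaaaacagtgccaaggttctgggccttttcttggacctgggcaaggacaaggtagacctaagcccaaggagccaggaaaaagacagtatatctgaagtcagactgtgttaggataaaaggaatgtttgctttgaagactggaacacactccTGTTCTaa
Slc12a3 start site: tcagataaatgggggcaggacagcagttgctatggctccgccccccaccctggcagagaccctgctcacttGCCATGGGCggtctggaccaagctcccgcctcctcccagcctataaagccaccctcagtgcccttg

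Away from start sites, the centres of the peaks with the largest difference in each direction, among called peaks open in at least 10% of the nuclei of the higher cluster and with the same direction in all samples, were chr2:125235585-125235784, downstream of Slc12a1, and chr7:82512384-82512583 in an intron of Adamtsl3. Neither run of 200 bases held a match, so they carry no capitals.
Peak downstream of Slc12a1, higher in LOH: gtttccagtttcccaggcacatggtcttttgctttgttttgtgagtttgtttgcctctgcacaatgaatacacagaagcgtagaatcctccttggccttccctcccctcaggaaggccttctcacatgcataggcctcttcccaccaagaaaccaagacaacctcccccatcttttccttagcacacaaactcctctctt
Adamtsl3 intron peak, higher in DCT: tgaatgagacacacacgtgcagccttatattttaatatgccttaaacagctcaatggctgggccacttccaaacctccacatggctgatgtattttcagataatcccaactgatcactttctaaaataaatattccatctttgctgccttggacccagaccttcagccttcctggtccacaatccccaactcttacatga

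A further peak was chosen after the motif matches were seen. It lies in an intron of Slc12a1 at chr2:125158812-125159111, higher in LOH, with a match to the estrogen-related receptor (ESRR) motif TCAAGGTCA on the minus strand and the steroid half-site AGAACA.
Slc12a1 intron peak, higher in LOH: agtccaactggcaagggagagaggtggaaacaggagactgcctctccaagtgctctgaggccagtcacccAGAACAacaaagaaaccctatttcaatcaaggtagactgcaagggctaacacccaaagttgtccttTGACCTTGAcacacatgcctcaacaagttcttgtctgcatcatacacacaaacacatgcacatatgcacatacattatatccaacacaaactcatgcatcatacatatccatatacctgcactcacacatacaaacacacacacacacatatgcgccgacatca

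The deposited matrix records for each nucleus and each of 300755 peaks whether at least 1 fragment fell in the peak, and such an entry is called an open call here. LOH sums held from 1563216 to 4382528 open calls per sample and DCT sums from 370736 to 2621064. The median LOH nucleus had from 2496 to 4477 open peaks and the median DCT nucleus from 2549 to 5611.5, both highest in P56 sample 2. More nuclei show a given peak as open where depth is higher, so shares are given to show the data and fold changes come from sums scaled to the depth of each sum. Of barcodes, 33 to 55 were shared between a pair of adult samples, and 0 to 3 of these were in the LOH and DCT clusters of both. An interval or a floor below covers counting error only.

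The cluster names were checked against marker genes. All 6 LOH markers were higher in LOH and all 6 DCT markers were higher in DCT by gene activity, which is the sum of open calls over a gene and the 2 kb upstream of it. Summed over the list, LOH markers stood at 841 to 918 CPM (calls per 1000000 calls over all genes or, for peaks, over all peaks) in the 3 LOH sums and at 188 to 218 in the DCT sums. DCT markers stood at 1555 to 2104 in DCT and at 413 to 474 in LOH. The clusters had been cut from the open chromatin of these nuclei, and the authors named them from Slc12a1 and Umod and from Slc12a3 and Pvalb, so p-values below rank peaks and genes and do not test whether the clusters differ. The part of other cell types in the DCT cluster was not tested: markers of the connecting tubule, the next segment, summed to 303 to 323 CPM in DCT, 131 to 169 in LOH and 786 to 1148 in the connecting tubule cluster (CNT), with no marker at 0. Proximal tubule (PCT) markers summed to 126 to 159 in DCT and 45.1 to 155 in LOH against 785 to 992 in the PCT cluster, and intercalated cell markers to 26.1 to 63.5 in DCT and 24.0 to 35.2 in LOH against 420 to 438 in their own cluster, with Atp6v1g3 at 0 in DCT. Principal cell markers summed to 160 to 195 in DCT and 56.7 to 60.1 in LOH against 424 to 560 in the principal cell cluster. Of this list Gata3, a transcription factor described below, alone stood at 154, 117 and 136 CPM in DCT and at 24.8, 11.7 and 12.1 in LOH. Avpr2, the vasopressin receptor, was higher in LOH (log2 fold change 2.81, a call lost without P56 sample 2 at 2.18), and the other 3 tested markers did not pass.

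LOH and DCT chromatin differed at a large number of peaks in both directions, with slightly more peaks higher in LOH. Of 40226 peaks with enough calls to be tested, 5951 (14.8%) were higher in LOH and 4736 (11.8%) were higher in DCT, 10687 (26.6%) in all, by edgeR's quasi-likelihood test with sample as a block and Benjamini-Hochberg (BH) adjusted p under 0.05. The median log2 fold change, LOH over DCT, was 1.31 among the former and −1.38 among the latter, against 0.05 over all tested peaks. The direction was the same in all 3 samples for 5269 peaks higher in LOH (88.5%) and for 4291 higher in DCT (90.6%). Where clusters are said below not to overlap, this only describes the values printed. The share of all tested peaks or genes without overlap is not given. Differences of at least 16-fold were called at 139 peaks higher in LOH and at 264 higher in DCT, whereas at least 4-fold differences numbered 1408 and 1328. The counts fell to 2238 and 1797 without P56 sample 2, to 3961 and 3710 without P56 sample 1 and to 3249 and 2747 without the sample block, and DESeq2 called 1821 and 2049 peaks, all of them among the edgeR calls. With each nucleus thinned to 1000 open peaks, 347 and 444 of 11186 tested peaks were called, so that LOH held 43.9% of the calls in place of 55.7%, and Fisher's exact test over pooled nuclei, which does not scale for depth, gave LOH 20.7% of its calls.

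**Figure D1:**
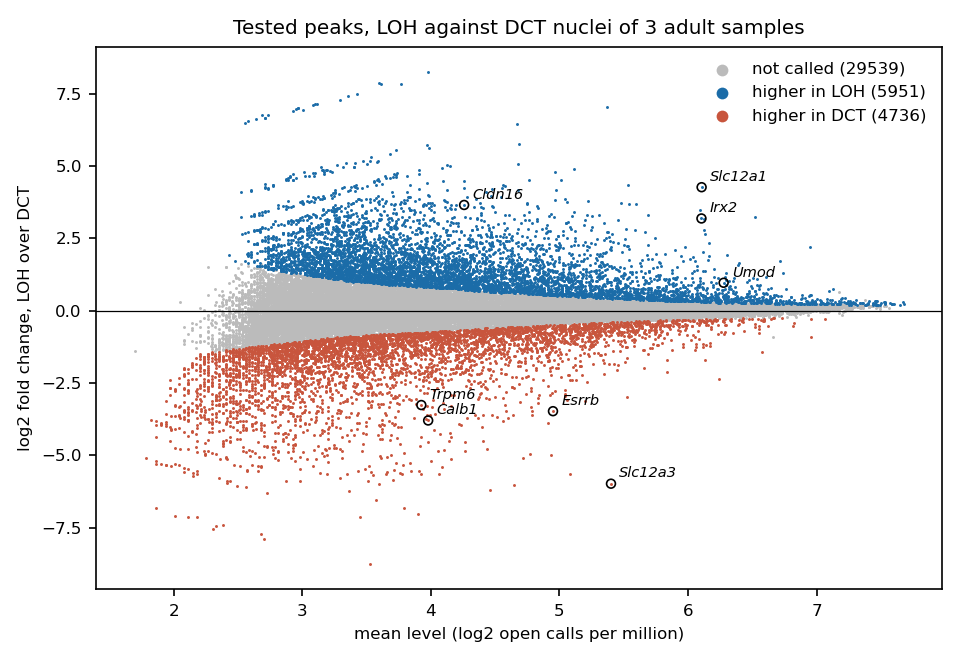
Each point is 1 of the 40226 tested peaks, with the mean level (log2 CPM) on the x axis and the log2 fold change of LOH over DCT on the y axis, coloured by call. The 5951 peaks higher in LOH and the 4736 higher in DCT spread over the whole range of levels, and the start-site peaks of Slc12a1 and Slc12a3 lie far out in opposite directions.

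The named peaks are the 10 in each direction with the largest fold change among called peaks that kept their direction in all samples and were open in at least 10% of the nuclei of the higher cluster. A total of 1342 peaks higher in LOH and 1424 higher in DCT met these conditions. Their size was the criterion, so their values are a description. The first in LOH was a distal peak at chr2:125234975-125236393, whose centre is printed above and which lies between Slc12a1 and Dut, 11506 bp from the start of Dut. It was open in 21.3% of LOH nuclei in P21 sample 1, 20.2% in P56 sample 1 and 12.8% in P56 sample 2, and in 0%, 0% and 0.230% of DCT nuclei. With 411 calls against 1, the pooled ratio per open call was 182, with a 95% counting interval from 32.6 to 7223. Every LOH sample was far above every DCT sample. A distal peak near Sohlh1, at chr2:25852686-25853297, was open in 10.2%, 9.98% and 11.7% of LOH nuclei and in 0%, 0.326% and 0% of DCT nuclei. An intron peak of Wdr25 at chr12:108931572-108932665 stood at 9.90%, 7.29% and 15.2% against 0%, 0% and 0.461%.

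Genes with a known role in the epithelium were also among these peaks. An exon peak of Capn2, a calcium-activated protease, at chr1:182488645-182489148 was open in 11.2%, 10.1% and 17.6% of LOH nuclei and in 0%, 0.326% and 0.922% of DCT nuclei. Its log2 fold change was 4.78 ± 0.375 (SE, n = 3 samples per cluster). The groups did not overlap, which the choice of these peaks by size and direction favours. The peak 1909 bp from the start of Slc16a12, a creatine transporter, at chr19:34748899-34749497 was open in 11.2%, 9.21% and 13.7% against 0%, 0% and 1.15% (log2 fold change 4.53 ± 0.395). The Slc12a1 intron peak with the ESRR match, chr2:125158703-125159219, was open in 17.3%, 8.35% and 17.8% of LOH nuclei and in 0.990%, 0.651% and 0.691% of DCT nuclei. Its log2 fold change was 4.53 ± 0.358, close to that of the Slc12a1 start site.

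In DCT, the first was an intron peak of Adamtsl3, a secreted matrix protein, at chr7:82512297-82512669. It was open in 3.96%, 10.4% and 15.7% of DCT nuclei and in 0 of 2341 LOH nuclei, which allows a share of up to 0.128%. Against that floor of 3 calls over all LOH nuclei the DCT level was at least 78.1-fold higher. A peak at chr7:107259696-107260461 was open in 18.8%, 14.7% and 16.4% of DCT nuclei and in 0%, 0.0960% and 0.110% of LOH nuclei. A peak at chr14:76263761-76264249, which is 150956 bp from Tsc22d1, was open in 30.7%, 17.9% and 26.0% of DCT nuclei and in 0.761%, 0.0960% and 0.221% of LOH nuclei (log2 fold change −6.19 ± 0.340). These 3 peaks showed no overlap between the clusters, which their choice by size and direction favours.

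Of the 10 DCT peaks, 5 had the homeobox motif TAATTA in their central 300 bases, as 0 of the 10 LOH peaks did, against 6.41% of all tested peaks. The steroid half-site was in 2 of the DCT and 5 of the LOH peaks, against 19.97% of all tested peaks. Of the 16 motifs searched, these were named after their counts were seen, and the counts describe peaks chosen by size.

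Thick ascending limb transport genes were higher in LOH as a group. Of 16 genes, all tested by gene activity, 11 were higher in LOH, 0 in DCT and 5 did not pass, with a median log2 fold change of 1.1 against −0.01 over all 20780 tested genes, of which 1794 (8.63%) were higher in LOH and 1717 (8.26%) in DCT, 16.9% in all. The gene counts fell to 740 and 635 without P56 sample 2 and to 1196 and 1102 without P56 sample 1. Without the sample block they fell to 589 and 553. At start-site peaks of the list, 10 of 14 tested were higher in LOH and 1 in DCT (median 0.91), against 1078 (7.87%) and 756 (5.52%) of all 13695 tested peaks over a start site. The start site of Slc12a1, which encodes the apical sodium, potassium and chloride cotransporter, was open in 34.8%, 16.6% and 43.2% of LOH nuclei (mean 31.5% ± 13.6, SD, n = 3) and in 0%, 0.651% and 3.46% of DCT nuclei (1.37% ± 1.84). The lowest LOH sample was well above the highest DCT sample. Its log2 fold change was 4.27 ± 0.207, with an edgeR adjusted p of 3.36e-88. Over the whole gene, all 16 tested peaks were higher in LOH, with log2 fold changes from 1.57 to 7.87, and 2 intron peaks, at chr2:125175913-125176329 and chr2:125212209-125212478, were at 0 in every DCT sum.

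Several claudins, which form the pores between the cells, were higher in LOH as well. Cldn16, a claudin of the paracellular calcium and magnesium path, had its start site (chr16:26462861-26463702) open in 6.60%, 7.49% and 8.29% of LOH nuclei and in 0.990%, 0.326% and 0.922% of DCT nuclei, a log2 fold change of 3.66 ± 0.431. Its partner Cldn19 reached 2.32 ± 0.432 at the start site. Cldn10, a claudin of the paracellular sodium path, was higher in LOH at 11 of 13 tested peaks, and its activity was 240, 213 and 182 CPM in LOH and 61.7, 93.2 and 56 in DCT (log2 fold change 1.57 ± 0.114). Its first annotated start was open in 1.95% of LOH and 0.877% of DCT nuclei and had too few calls to be tested, whereas a peak over a second start, chr14:118854467-118855629, was open in 14.2%, 9.12% and 19.1% of LOH nuclei and in 0%, 0.977% and 1.84% of DCT nuclei (3.76). Cldn14, which restricts the calcium path, passed by activity (0.93 ± 0.276), and Cldn3 did not (0.30). At the peak over its start Cldn3 was called higher in LOH. That call was lost with DESeq2 (0.32), without the sample block (0.32), on thinned nuclei (0.27) and without either P56 sample (0.31 and 0.30). Cldn4, of the thin limb list, was higher in DCT (−1.45). Without P56 sample 2 the calls of the Cldn19 start site (1.42) and of Cldn14 (1.28) were lost, and without P56 sample 1 (0.87) or the sample block (1.02) that of Cldn14 was lost.

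Among receptors and exchangers, Slc9a3, the apical sodium and proton exchanger, was open at its start site in 19.8%, 9.98% and 18.5% of LOH nuclei and in 1.98%, 0.326% and 3.46% of DCT nuclei (log2 fold change 3.12 ± 0.268). Ptger3, a prostaglandin E receptor, stood at 14.5%, 8.54% and 16% against 2.97%, 1.95% and 3.92% (2.34 ± 0.261). Casr, the calcium-sensing receptor, had a log2 fold change of 2.62 ± 0.380 at its start site and of 0.73 ± 0.0969 over the gene. In all 3 the LOH samples were above the DCT samples. Slc5a3, which takes up the osmolyte inositol, was higher in LOH over the gene (1.28 ± 0.101). Umod, which encodes uromodulin, the most abundant protein of normal urine, differed less: its start site was open in 25.1%, 16.7% and 40.9% of LOH nuclei and in 11.9%, 11.7% and 25.1% of DCT nuclei, so the shares overlapped between samples, while LOH was above DCT within each. On depth-scaled sums its log2 fold change was 0.97 ± 0.121, and 2 further Umod peaks, at chr7:119476572-119477694 and chr7:119469378-119470080, reached 2.10 and 2.57.

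Not all transport genes of the limb were higher in LOH. The apical potassium channel Kcnj1 and the chloride channel subunit Bsnd, both of which also serve the distal convoluted tubule, had log2 fold changes in activity of 0.11 and 0.05 and did not pass.

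**Figure D2:**
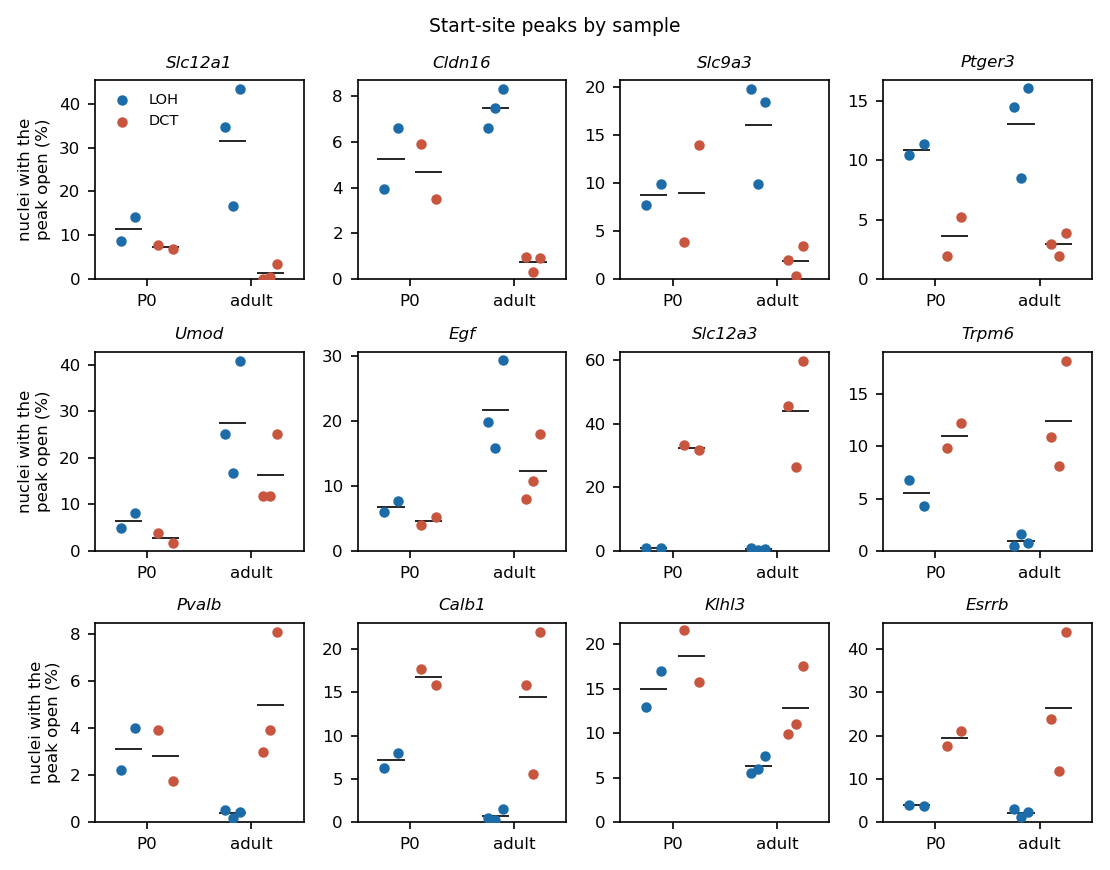
Each panel gives the share of nuclei (%) in which the peak over the start site of a gene was open, with 1 point per sample and a line at the mean of each cluster, for LOH and DCT at P0 and in adults. Adult LOH and DCT points do not overlap for Slc12a1, Cldn16, Slc9a3, Ptger3, Slc12a3, Trpm6, Pvalb, Calb1, Klhl3 and Esrrb, and they do for Umod and Egf. The share of all tested peaks without overlap is not given.

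Distal convoluted tubule transport genes were higher in DCT for 7 of 13 tested genes, higher in LOH for 2, and 4 did not pass, with a median log2 fold change in activity of −0.48. Over all tested genes 8.26% were higher in DCT and 8.63% in LOH. The start-site peaks of the list counted 5 higher in DCT, 2 higher in LOH and 6 not called, against 5.52% and 7.87% over all tested start-site peaks. Slc12a3, the thiazide-sensitive sodium and chloride cotransporter, had its start site (chr8:94328760-94329567) open in 45.5%, 26.4% and 59.7% of DCT nuclei (43.9% ± 16.7, SD, n = 3) and in 1.02%, 0.288% and 0.663% of LOH nuclei (0.655% ± 0.364). The log2 fold change of −5.98 ± 0.231 had the smallest edgeR adjusted p of all tested peaks, 6.34e-143. Pvalb, the calcium buffer parvalbumin, was open at its start in 2.97%, 3.91% and 8.06% of DCT nuclei and in 0.508%, 0.192% and 0.442% of LOH nuclei (−3.64 ± 0.524). The sparse Pvalb signal and the dense Slc12a3 signal were both free of overlap between the clusters.

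Magnesium entry was marked by Trpm6, the apical magnesium channel, which was open at its start in 10.9%, 8.14% and 18.2% of DCT nuclei and in 0.508%, 1.63% and 0.773% of LOH nuclei (log2 fold change −3.26 ± 0.319). All 8 tested Trpm6 peaks were higher in DCT, among them chr19:18772802-18773805, open in 44.6%, 21.8% and 53.9% of DCT nuclei and in 4.06%, 3.36% and 4.86% of LOH nuclei. Trpm7, a related channel of most cells, did not pass (−0.25). Kcnj10, the basolateral potassium channel, was open at its start in 19.8%, 17.9% and 33.2% of DCT nuclei and in 8.12%, 6.91% and 12.5% of LOH nuclei (−1.13), and its activity differed by −0.74 ± 0.0912. Kcnj16, which pairs with Kcnj10, did not pass (−0.02). Cnnm2, which encodes a basolateral membrane protein needed to keep magnesium in the body, and Slc41a3, another magnesium transport gene, had log2 fold changes in activity of −0.84 and −0.48, and the Slc41a3 call was lost without P56 sample 2 (−0.56) and without the sample block (−0.52). On thinned nuclei and in the window around the start site the Slc41a3 call was lost too, at −0.098 and −0.010. The start site of Cnnm2 did not pass the test, with a log2 fold change of 0.02.

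The 2 genes of the DCT list that were higher in LOH were Fxyd2 and Egf, whose call by activity was lost with DESeq2 (0.87). Fxyd2, a regulatory subunit of the sodium pump, was open at its start in 31.2%, 20.7% and 35.6% of LOH nuclei and in 15.8%, 6.19% and 25.1% of DCT nuclei (log2 fold change 1.08 ± 0.123). Egf, the precursor of epidermal growth factor, stood at 19.8%, 15.8% and 29.4% against 7.92%, 10.7% and 18% (0.99 ± 0.139). The shares overlapped between clusters for both genes, while within each sample LOH was above DCT. Over the gene, 20 of 24 tested Egf peaks were higher in LOH and 0 in DCT.

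Not every peak in Slc12a3 followed its start site. Of 15 tested peaks, 13 were higher in DCT and 0 in LOH. The peak chr8:94354128-94355175 was open in 28.2%, 21.7% and 51.9% of LOH nuclei and in 35.6%, 25.4% and 54.1% of DCT nuclei, a log2 fold change of 0.13 ± 0.0945. The peak at the end of the gene, chr8:94362093-94366316, varied widely among the DCT samples, at 49.5%, 83.4% and 28.6%, against 15.2%, 16.3% and 34.8% of LOH nuclei. In P56 sample 2 the LOH share was the higher one, and in the others the DCT share was. That peak alone made up 15.9%, 35.6% and 7.47% of the Slc12a3 activity of the DCT sums, so the activity log2 fold change of −1.90 ± 0.162 carries its spread. Without it the activity was 629, 474 and 522 CPM in DCT and 105, 119 and 140 in LOH.

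**Figure D3:**
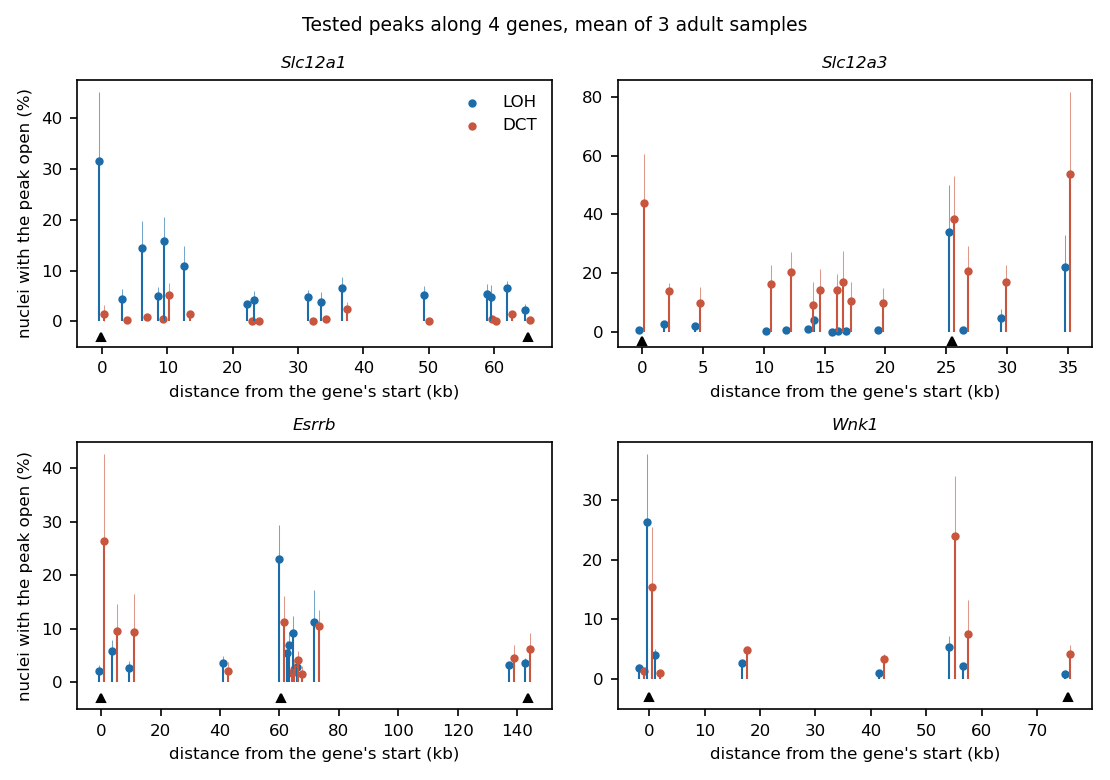
For Slc12a1, Slc12a3, Esrrb and Wnk1, the mean share of nuclei (%) with each peak open in the 3 adult samples is plotted against the distance from the gene start (kb) for LOH and DCT, with lines for the SD and triangles for tested peaks over an annotated start site. Slc12a1 peaks are higher in LOH throughout, most Slc12a3 peaks are higher in DCT, and Esrrb and Wnk1 have start sites that differ in opposite directions.

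WNK and SPAK pathway genes, which control the phosphorylation of the cotransporter, were mixed. By activity 1 of 10 was higher in LOH, 4 were higher in DCT and 5 did not pass, with a median log2 fold change of −0.07, close to that of all genes. The shares over all tested genes were 8.63% in LOH and 8.26% in DCT. Klhl3, the adaptor that brings WNK kinases to degradation, was higher in DCT at 14 of 15 tested peaks. Its activity was 665, 489 and 451 CPM in DCT and 172, 195 and 192 in LOH (−1.44 ± 0.101), without overlap. Its partner Cul3 did not pass, and neither did Stk39, which encodes SPAK, or Oxsr1, its relative. Wnk4 and Sgk1, an aldosterone-induced kinase, were higher in DCT with log2 fold changes of −0.35 and −0.51. Nedd4l, a ubiquitin ligase, was higher in LOH (0.41). The Wnk4 call was lost without P56 sample 1 (−0.24) and the Sgk1 call without P56 sample 2 (−0.40). In P21 sample 1 Sgk1 stood higher in LOH than in DCT (69.3 against 64.1 CPM). Without the sample block the calls of Wnk4 (−0.40), Sgk1 (−0.39) and Nedd4l (0.41) were lost. Those of Wnk4 (−0.41 and −0.23) and Sgk1 (−0.43 and −0.44) were also lost with DESeq2 and on thinned nuclei.

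Wnk1 encodes a long kinase and, from an internal start, a short form of the distal nephron without kinase activity. The peak over its first start, chr6:120038125-120039183, was open in 26.6%, 14.9% and 37.5% of LOH nuclei and in 10.9%, 8.47% and 27.0% of DCT nuclei and was higher in LOH (log2 fold change 0.90 ± 0.123), with shares that overlapped between samples, while LOH was above DCT within each. The intron peak chr6:119983566-119984492 was open in 4.82%, 3.84% and 7.40% of LOH nuclei and in 21.8%, 15.3% and 35.0% of DCT nuclei and was higher in DCT (−1.91 ± 0.178). A peak over an annotated internal start, chr6:119962810-119963444, was higher in DCT too (−2.19 ± 0.480). It was open in 1.27%, 0.192% and 1.22% of LOH nuclei and in 3.96%, 2.93% and 5.76% of DCT nuclei. Which of these peaks belongs to the short form was not tested. Of the 8 tested Wnk1 peaks, 2 were higher in LOH and 4 in DCT. The activity of the whole gene was higher in DCT (−0.56 ± 0.0902), and turned to 0.84 when only the window from 2 kb upstream to 500 bp downstream of the start was summed.

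Distal calcium handling genes were higher in DCT for 6 of 9 tested genes and in LOH for 0, with a median log2 fold change of −0.76. All tested genes were higher in DCT for 8.26% and in LOH for 8.63%. Calb1, the cytosolic calcium buffer calbindin, was open at its start in 15.8%, 5.54% and 21.9% of DCT nuclei and in 0.508%, 0.288% and 1.55% of LOH nuclei (−3.79 ± 0.334). Its activity of 104, 37.9 and 79.4 CPM in DCT against 3.47, 2.59 and 4.23 in LOH gave the largest difference of the list, −4.27 ± 0.214. Trpv5, the apical calcium channel, had few calls, at 9.50, 11.3 and 11.2 CPM in DCT and 2.31, 0.648 and 2.02 in LOH (−2.70 ± 0.480). The clusters did not overlap for either gene. Basolateral exit was represented by Slc8a1, the sodium and calcium exchanger (−0.92), and by the calcium pump Atp2b4 (−0.74, a call lost on thinned nuclei at −0.46), while the pump Atp2b1 did not pass. Vdr, the vitamin D receptor, stood at 188, 213 and 199 in DCT and at 107, 122 and 119 in LOH (−0.76 ± 0.0881), and Kl, which encodes the FGF coreceptor Klotho, had a log2 fold change of −0.42. At its start site Slc8a1 differed by −1.35, and this call (−1.03) and that of Kl (−0.32) were lost without P56 sample 2. Without the sample block (−0.39), with DESeq2 (−0.39) and on thinned nuclei (−0.56) the Kl call was lost too. Markers of the connecting tubule, summed above, include Calb1, Trpv5 and Slc8a1 of this list. Of these 6 markers, 4 were higher in DCT by activity and 2 did not pass. At their start sites 3 of 5 tested were higher in DCT and 1 in LOH.

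Of 10 mineralocorticoid and glucocorticoid response genes, 3 were higher in DCT, 1 in LOH and 6 did not pass, with a median of −0.02. Among all tested genes 8.26% were higher in DCT and 8.63% in LOH. Scnn1b and Scnn1g, subunits of the epithelial sodium channel, had log2 fold changes in activity of −2.13 ± 0.292 and −0.98, and the third subunit, Scnn1a, did not pass. Scnn1b stood at 19.0, 30.7 and 21.4 CPM in DCT and at 8.09, 6.16 and 4.03 in LOH. Nr3c2, the mineralocorticoid receptor, differed by −0.30, whereas Nr3c1, the glucocorticoid receptor, and Hsd11b2, the enzyme that protects the mineralocorticoid receptor from cortisol, did not pass. Zbtb16, a steroid-responsive repressor, was higher in LOH (0.56). The Nr3c2 call was lost without either P56 sample (−0.30 without P56 sample 1 and −0.29 without P56 sample 2), and that of Scnn1g without P56 sample 1 (−0.82). Without the sample block the calls of Scnn1g (−1.09) and Nr3c2 (−0.30) were lost. Both were also lost with DESeq2 (−1.12 and −0.28) and on thinned nuclei (−0.85 and −0.22).

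Of 30 transcription factors of the distal nephron, 11 were higher in LOH, 7 higher in DCT and 12 not called by activity (median log2 fold change 0.13). Over all tested genes 8.63% were higher in LOH and 8.26% in DCT. The Iroquois genes, homeobox factors of nephron segmentation, were higher in LOH. Irx2 was open at its start in 33.2%, 16.6% and 41.5% of LOH nuclei and in 1.98%, 1.95% and 6.22% of DCT nuclei (3.19 ± 0.176). Irx1 stood at 17.0%, 9.69% and 23.8% against 2.97%, 0.651% and 3.00% (3.32 ± 0.259), and Irx3 differed by 1.84. Sim2, a basic helix-loop-helix factor, was open in 18.8%, 9.98% and 27.2% of LOH nuclei and in 1.98%, 1.30% and 3.92% of DCT nuclei (3.13 ± 0.235). None of these groups overlapped in the values given, which is a description. Nfia and Foxq1 had log2 fold changes in activity of 1.31 and 1.15.

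On the DCT side, Gata3, a zinc finger factor of the ureteric lineage and distal nephron, was open at its start in 7.92%, 8.79% and 15.7% of DCT nuclei and in 2.28%, 0.384% and 0.773% of LOH nuclei (−3.47 ± 0.343). Emx1, a homeobox factor, stood at 33.7%, 14.0% and 33.9% of DCT nuclei and at 3.81%, 1.73% and 3.65% of LOH nuclei (−2.92 ± 0.206). Tfap2a, an AP-2 factor, was open in 20.8%, 10.1% and 28.6% against 2.54%, 2.02% and 3.31% (−2.62 ± 0.230). The T-box gene Tbx2 differed by −2.36 at its start and the zinc finger gene Sall3 by −2.10 in activity. All of these were free of overlap in the values given, a description without the share over all tested peaks or genes. Smaller calls in activity included those of Esrrg (−0.26), Prdm16 (0.31), Emx2 (0.47), Sall1 (0.35) and Hoxd8 (−0.35). All 5 were lost without P56 sample 2 (−0.16, 0.21, 0.70, 0.42 and −0.46), those of Esrrg, Prdm16 and Hoxd8 also without P56 sample 1 (−0.24, 0.30 and −0.36) and that of Emx2 without P21 sample 1 (0.35). Without the sample block all 5 were lost too (−0.22, 0.29, 0.55, 0.39 and −0.39), and so they were on thinned nuclei (−0.22, 0.30, 0.19, 0.38 and −0.36). Pax8, also called higher in LOH, lost its call with DESeq2 (0.57), without the sample block (0.56) and on thinned nuclei (0.56).

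Esrrb, an estrogen-related receptor, showed no difference in activity over the gene (log2 fold change 0.01), but its peaks differed in both directions. The peak over the first start, chr12:86360917-86361423, was open in 23.8%, 11.7% and 43.8% of DCT nuclei and in 3.05%, 1.15% and 2.43% of LOH nuclei (−3.47 ± 0.219). A peak over a second start inside the gene, chr12:86421240-86422245, was open in 23.4%, 16.5% and 29.3% of LOH nuclei and in 6.93%, 10.1% and 16.6% of DCT nuclei (1.14 ± 0.140). The first start was thus separated by cluster in every sample, and at the second the lowest LOH share of 16.5% lay just under the highest DCT share of 16.6%, while LOH was above DCT within each sample. Introns next to the first start were higher in DCT (chr12:86370905-86371548, −1.92), and introns past the second start were higher in LOH, by 1.69, 1.62 and 1.25. With the activity window restricted to the first start, the log2 fold change was −3.52. Of 1307 genes with at least 2 tested start-site peaks, 91 had at least 2 of them called, and 10 had calls in opposite directions, Esrrb and Wnk1 among them.

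Growth factor and Wnt signal genes were higher in LOH for 5 of 15, higher in DCT for 1 and not called for 9 (median 0.20). The shares over all tested genes were 8.63% in LOH and 8.26% in DCT. Ephb2, an ephrin receptor, had 21 of 23 tested peaks higher in LOH. Its activity was 414, 518 and 548 CPM in LOH and 173, 184 and 160 in DCT (log2 fold change 1.59 ± 0.0964), with no overlap. Bmp4, a secreted growth factor, stood at 75.7, 65.2 and 70.1 against 28.5, 24.6 and 26.5 (1.41 ± 0.132). Wnt5a, Erbb4 and Fgf1 were higher in LOH by 0.87, 0.55 and 0.53, and Egfr, the receptor of the Egf product, was higher in DCT by −0.29. The calls of Fgf1 (0.32) and Egfr (−0.20) were lost without P56 sample 2, and that of Egfr also without P56 sample 1 (−0.31). Without the sample block the calls of Fgf1 (0.48), Egfr (−0.26) and Erbb4 (0.55) were lost, Erbb4 was also lost on thinned nuclei (0.39), and Wnt5a was lost with DESeq2 (0.85). Egfr was lost with DESeq2 (−0.26) and on thinned nuclei (−0.42) too.

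Thin limb genes did not stand as a group on the LOH side. Of 11 tested by activity, 2 were higher in LOH, 4 in DCT and 5 did not pass (median −0.19), against 8.63% and 8.26% of all tested genes. Slc4a11, a transporter of the thin descending limb, was higher in LOH (1.76), as was Cryab, a small heat shock protein of the inner medulla (0.86). Aqp1, the water channel of the descending limb and proximal tubule, was higher in DCT (−1.07), together with Cldn4 (−1.45), Id3 (−0.82) and Jag1 (−0.39). Of 5 tested PCT markers, Slc5a12 (−1.49), Lrp2 (−0.80) and Gatm (−0.92) were also higher in DCT and 2 did not pass. Of 4 tested markers of the proximal straight tubule, Slc5a1, a glucose transporter, was higher in LOH (2.29) and 3 did not pass. In P21 sample 1 the LOH level was above that of DCT for Aqp1 (18.5 against 14.2 CPM), Lrp2 (70.5 against 66.5) and Gatm (12.7 against 11.9). The part of proximal nuclei in these values was not tested. The calls of Slc5a12, Lrp2 and Gatm were lost without P56 sample 2 (−1.32, −0.69 and −0.76), and that of Gatm also without P56 sample 1 (−0.73). Except for Slc4a11, each of these thin limb calls was lost without 1 of the samples: Cryab (0.64), Id3 (−0.66), Jag1 (−0.38) and Aqp1 (−0.93) without P56 sample 2, Aqp1 (−0.74) also without P56 sample 1, and Cldn4 (−1.01) without P21 sample 1. Without the sample block the calls of Cryab (0.87), Jag1 (−0.40), Aqp1 (−0.90) and Cldn4 (−1.54) and of the markers Slc5a12 (−1.27), Lrp2 (−0.63) and Gatm (−0.83) were lost. Among 6 genes of the macula densa, the salt sensor at the end of the thick limb, 1 was called, Nos1, a nitric oxide synthase, higher in DCT (−0.98). Over all tested genes 16.9% were called in either direction.

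**Figure D4:**
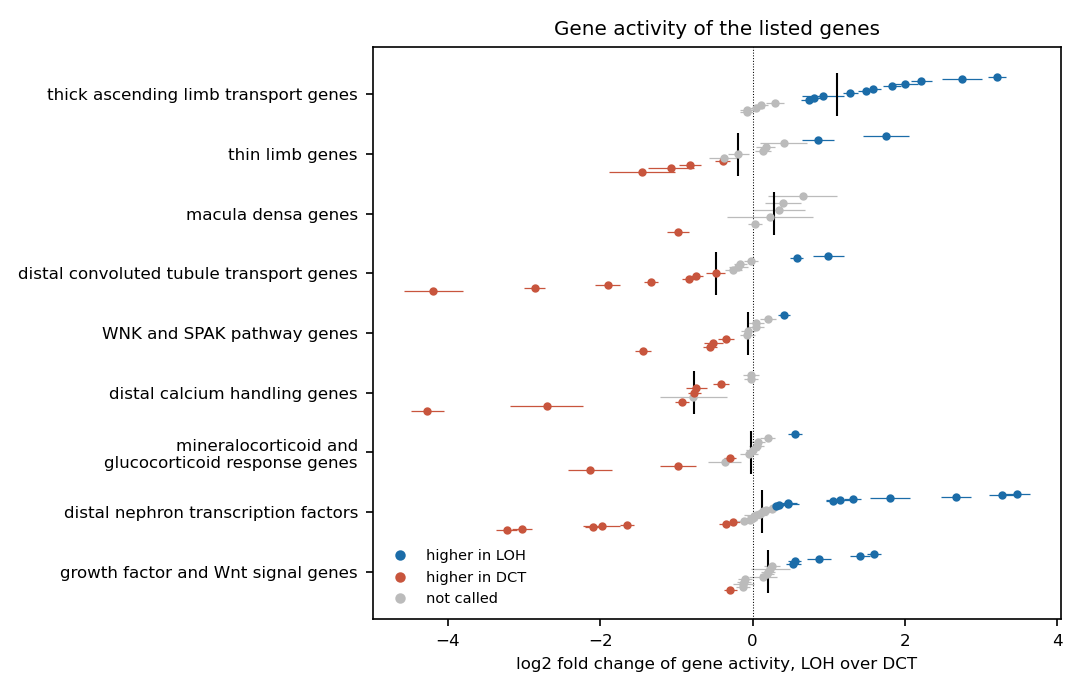
Gene activity log2 fold change of LOH over DCT (x axis), with its SE, is plotted for each tested gene of the 9 lists, and a vertical bar marks the median of each list. The median lies at 1.1 for thick ascending limb genes, at −0.48 for distal convoluted tubule genes and at −0.76 for calcium handling genes, and near 0 for WNK and SPAK and steroid response genes.

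The named genes by activity were the 10 protein-coding genes in each direction with the largest fold change among well covered genes. Sim2, Irx2, Irx1 and Slc12a1, already described, were in the LOH set. Pcsk6, a protein convertase, stood at 127, 190 and 200 CPM in LOH and at 21.4, 23.6 and 18.3 in DCT (3.25 ± 0.137). Plau, the urokinase protease, was at 84.9, 55.8 and 74.0 against 16.6, 13.3 and 10.2 (2.61 ± 0.172), and Wnt7b, a Wnt ligand, at 145, 168 and 180 against 28.5, 36.9 and 32.9 (2.38 ± 0.118). LOH and DCT did not overlap in any of these, which the choice by size and by direction in all samples favours. The set was completed by Fam43a, Fbxl7 and Zcchc3, with log2 fold changes of 2.56, 2.54 and 2.49. In DCT, Gata3 stood at 154, 117 and 136 against 24.8, 11.7 and 12.1 in LOH and Emx1 at 159, 107 and 92.0 against 20.8, 12.0 and 11.3. Adamtsl3 was at 76.0, 120 and 93.3 against 20.2, 9.73 and 7.86 (−3.22 ± 0.210). Trpm6, Sall3 and Slc12a3 were in the set too, along with Cdc42ep1, Sorcs1, Lypd6 and Emid1 at −2.12, −1.94, −1.92 and −1.82.

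Called peaks lay away from start sites more often than uncalled ones. Of peaks higher in LOH, 41.1% were in introns and 24.8% were distal, and of those higher in DCT 43.8% and 26.3%, against 30.0% and 16% of uncalled peaks. Peaks over an annotated start site made up 18.1% and 16% of the called peaks and 34.05% of all tested peaks. The median distance to the nearest start was 11863 bp for LOH, 14108.5 bp for DCT and 5165 bp for all tested peaks. At the level of genes, 12775 had a tested peak, 3582 had a called one and 391 had calls in both directions. Fgfr2, a fibroblast growth factor receptor chosen after its values were seen, had 9 peaks higher in LOH and 9 higher in DCT of 36 tested.

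The letters of the called peaks differed as well. Motifs were searched on both strands in the central 300 bases of 40211 tested peaks, and a match is a description of the letters and not of binding. The ESRR motif TCAAGGTCA was in 2.35% of peaks higher in LOH (95% Wilson interval 2.00 to 2.77), in 0.887% of those higher in DCT (0.657 to 1.20) and in 1.24% of all tested peaks. The LOH to DCT ratio of 2.65 was 1.95 when whole peaks were searched. The GATA motif AGATAAG was in 2.19% of LOH, 4.41% of DCT and 2.44% of all peaks, and in 1.78% and 6.4% of those that differed at least 4-fold. The homeobox motif TAATTA was in 7.90%, 11.4% and 6.41%, and in 10.4% and 15.7% at 4-fold. The TEAD motif ACATTCCA was in 3.50% of LOH, 2.53% of DCT and 2.17% of all peaks, and the octamer ATGCAAAT in 1.97%, 2.70% and 1.68%. NFI half-sites were equally frequent in both sets, at 8.41%, and the steroid half-site AGAACA was at 23.7% and 23.1%, each above the 6.85% and 19.97% of all tested peaks. The AP-2 motif GCCNNNGGC was less frequent in both sets (14.8% and 14.4%) than in all tested peaks (18.1%). The CTCF core AGGGGGCGC was rare, at 0.656% of LOH (39 peaks), 0.253% of DCT (12 peaks) and 1.23% of all peaks, and its LOH to DCT ratio of 2.59 was 1.39 over whole peaks. Base composition moved with these shares: the median GC content was 50.7% in LOH, 49.7% in DCT, 54.0% in peaks not called and 52.7% in all tested peaks, and its part in the motif shares was not tested.

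Among the other kidney clusters, the peaks higher in DCT were most open in the connecting tubule. Peaks higher in DCT had a median of 15.98 CPM in DCT nuclei, 13.3 in CNT, 6.76 in intercalated cells, 6.27 in principal cells and 5.25 in LOH. Over 13 clusters DCT had the highest level at 46.7% of them and CNT at 20.02%. The lowest and highest sample medians were 13.5 and 17.6 in DCT and 10.9 and 14.1 in CNT, so these overlapped. Peaks higher in LOH had a median of 15.8 in LOH, from 13.4 to 18.3 by sample, and the next clusters were nephron progenitors at 10.4, principal cells at 8.06, CNT at 6.94 and intercalated cells at 6.87, with DCT at 5.79. Over all tested peaks the median was 9.77 in the progenitors, 9.84 in principal cells, 9.89 in intercalated cells, 11.04 in CNT and 11.3 in both DCT and LOH, so peaks higher in LOH stood below this level in principal cells, intercalated cells and CNT. In the progenitors, with 195 adult nuclei, their sample medians ran from 8.65 to 12.2, on both sides of it. The name of that cluster is the deposited one. Progenitor markers summed to 31.5 to 75.6 CPM in it, 24.2 to 49.3 in LOH and 89.4 to 111 in the endothelial cluster. LOH markers summed to 348 to 406 CPM in it, more than in any cluster but LOH. What these adult nuclei are was not tested. LOH had the highest level at 45.1% and the progenitor cluster at 12.1%. Since the peaks were chosen on LOH and DCT, the levels in these clusters carry that choice. Nuclei of the other clusters took no part in the test. All clusters were cut from the same open chromatin, however, so levels in the others are no separate evidence.

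**Figure D5:**
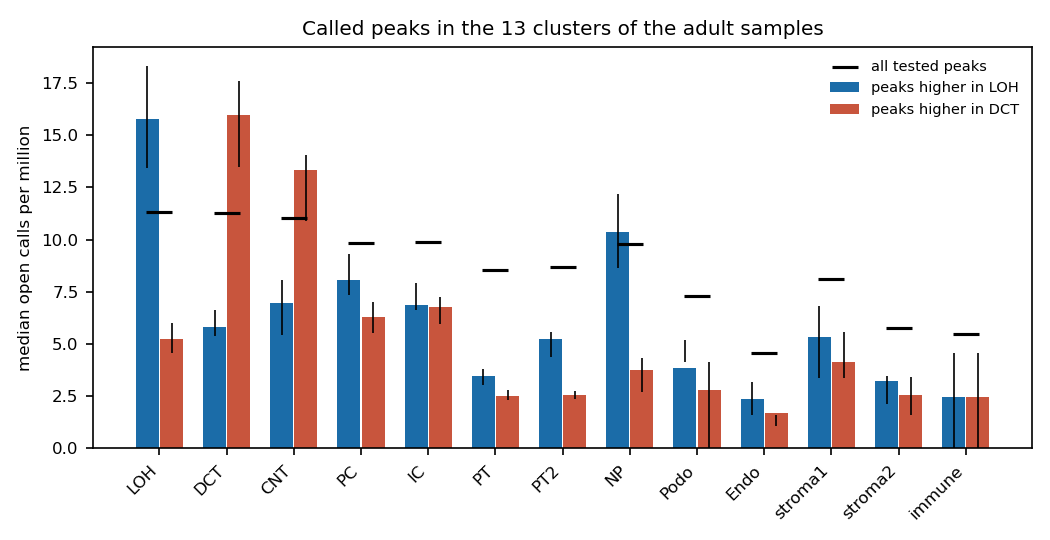
Bars give the median CPM of the peaks higher in LOH and of those higher in DCT in each of 13 clusters of the adult samples, lines run from the lowest to the highest sample median, and dashes mark the median of all tested peaks. After the cluster that defined them, DCT peaks were most open in CNT (13.3) and LOH peaks in the cluster named nephron progenitors (10.4).

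The same contrast was computed at P0. The P0 samples held 635 and 652 LOH nuclei but only 51 and 57 DCT nuclei, so single P0 DCT values are imprecise. P0 nuclei were also deeper than adult ones, with medians of 6567 and 7430 open peaks in LOH and 8025 and 7283 in DCT. Shares at P0 and in adults are therefore not at equal depth. Beyond the thinning given below, the part of depth in the stage differences was not tested. The difference of the contrast between stages was tested as an interaction over 24641 genes, and 1358 (5.51%) passed, 682 (2.77%) with a more positive LOH to DCT log2 fold change in adults and 676 (2.74%) with a more negative one. Of the genes higher in LOH in adults, 1198 of 1794 (66.8%) had the same sign at P0, with a median of 0.21 at P0 against 0.80 in adults in that fit. Of the genes higher in DCT, 1134 of 1717 (66.0%) did, with −0.18 against −0.73. These genes were chosen by their adult values, which by itself favours smaller values at P0, so the medians are a description. A larger adult contrast passed the interaction test for 398 of the 1794 and 453 of the 1717, and a smaller one for 0 and 12. The choice by adult contrast favours the larger side of these counts too, so they are also a description. The count of 1358 was 317 without P56 sample 2, 460 and 579 without the first and second P0 sample, 162 with DESeq2 and 67 on nuclei thinned to 1000 open peaks. The stage values below use the adult sums already described, so they are no separate evidence of the adult difference.

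Slc12a1 activity was 70.6 and 89.7 CPM in P0 LOH and 39.8 and 41.2 in P0 DCT, a log2 fold change of 0.97 ± 0.231, against 343, 268 and 301 in adult LOH and 35.6, 34.8 and 30.5 in adult DCT (3.21 ± 0.120). The stage difference was 2.25 ± 0.328 with an edgeR adjusted p of 6.85e-06, a call lost on thinned nuclei (2.02). At the Slc12a1 start site 8.82% and 14.1% of P0 LOH nuclei and 7.84% and 7.02% of P0 DCT nuclei were open, the DCT shares resting on 4 open nuclei each. Cldn16, Cldn19 and Slc9a3 had P0 log2 fold changes of 0.34, 0.22 and 0.31, none of which passed, and stage differences of 2.43, 2.01 and 1.53. Fxyd2 was higher in DCT at P0 (−1.04) and higher in LOH in adults, with a stage difference of 1.63. Umod was higher in LOH at both stages, by 2.17 ± 0.469 at P0, where 1 DCT sum stood at 2.29 CPM, and the stage difference did not pass (−0.67, edgeR adjusted p 0.617).

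DCT genes differed from each other in this respect. Slc12a3 activity was 321 and 350 CPM in P0 DCT and 47.0 and 43.5 in P0 LOH, a log2 fold change of −2.91 ± 0.265, and its stage difference did not pass (1.04, edgeR adjusted p 0.0821). Its start site was open in 33.3% and 31.6% of P0 DCT nuclei and in 0.945% and 0.920% of P0 LOH nuclei. Klhl3 (−1.21 at P0) and Trpv5 (−2.51) were called at both stages as well, and their stage differences of −0.20 and −0.18 did not pass. By contrast Trpm6 went from −1.21 to −2.86, Calb1 from −2.49 to −4.27 and Pvalb from −0.56 to −4.19, with stage differences of −1.64, −1.77 and −3.62. The transcription factors Gata3 (−1.14 at P0), Emx1 (−1.25) and Tfap2a (−0.37) also differed between stages, by −2.09, −1.77 and −1.28, whereas the differences of Irx2 (1.75 at P0, edgeR adjusted p 0.0978) and Sim2 (2.63, 0.568) did not pass. Without P56 sample 2 the stage calls of Cldn16 (1.95), Pvalb (−3.72) and Calb1 (−1.87) were lost, and that of Cldn16 also without either P0 sample (2.47 and 2.38). Of the stage calls given in this and the preceding paragraph, only those of Trpm6, Gata3 and Emx1 were kept on thinned nuclei.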

How the data were processed

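Per the labels and methods, reads were mapped by the authors with Cell Ranger ATAC 1.1.0 on mm10 (GRCm38). They filtered barcodes on fragments, promoter ratio and mitochondrial ratio, clustered nuclei on genome bins with SnapATAC and Harmony, named the clusters from marker genes, and called peaks with MACS2 on the pooled nuclei of each cell type. The deposited counts are open calls of 300755 peaks in each nucleus, which the authors binarized and did not scale for depth. A further 89197 stored zeros were read as closed. Doublets were not searched for here, and no step of the sources used here names their removal.

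Open calls were summed per sample and cluster, giving 6 adult sums, from 370736 to 4382528 calls each, and 10 sums with P0. Values of the smallest sums are the least precise. Both clusters of a sample come from the same library, so sample entered as a block. Peaks and genes were tested in R 4.3.3 with edgeR 4.0.16 (limma 3.58.1), after filterByExpr (minimum count 10, minimum total 15) and TMM normalization, with the quasi-likelihood test and BH adjustment at 0.05. The SE was derived from the log2 fold change and the F statistic of the test, so it rests on the same shared estimate of spread. The stage difference was the interaction of cluster and stage over the 10 sums. The fit was tested on simulated data. Gene activity summed peaks over the gene and 2 kb upstream in GENCODE M21, so a peak in overlapping genes counted for each. Promoters reached 5 kb upstream, and 16 motifs were searched in the RefSeq GRCm38 genome. Python 3.11.15 was used for the rest (scipy 1.17.1, pandas 2.3.3, numpy 2.4.6, matplotlib 3.10.9).

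Named peaks and genes were those of 9 lists with 123 genes, plus the 10 with the largest fold change in each direction among called peaks or protein-coding genes with the same direction in all 3 samples, open in at least 10% of nuclei of the higher cluster (peaks) or at a mean log2 level of at least 5 (genes). The clusters, lists and tests were chosen with earlier results of these data known. How many of all tested peaks or genes showed no overlap between the clusters is not given here. The alternatives were DESeq2 1.42.0, its size factors, no filter, no block, thinning to 1000 open peaks per nucleus, equal numbers of nuclei, Fisher's exact test over pooled nuclei, a window around the start site, a promoter of 2 kb, whole peaks for motifs and each sample left out in turn. The cluster names and stages of scRNA-seq cells and the plotted embeddings were not used here, and 0 columns of per-sample values were left unmapped. Bulk ATAC-seq was not used here. Values of some genes and peaks are not reported here.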

Additional observations from a re-analysis of the deposited data

Results flagged for a closer look

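Of the genes named by the rules above, 134 were tested for a difference of the LOH to DCT contrast between P0 and adult kidneys, and 41 showed one, 27 with a more positive contrast in adults and 14 with a more negative one, by the interaction term in edgeR (BH adjusted p under 0.05). Over all 24641 tested genes 1358 (5.51%) did. Each value below is the adult log2 fold change of LOH over DCT minus that at P0, and the P0 DCT sums rest on 51 and 57 nuclei. The genes named for their adult fold change were chosen on the adult value that enters this difference, so its direction in them is no separate evidence. On nuclei thinned to 1000 open peaks 34 of the 41 calls were lost and 7 kept, and with DESeq2 11 were lost, 22 kept and the others had no adjusted p.

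Thick ascending limb transport genes made up the largest listed group, with 9 of 16, all above 0. Among these were Slc12a1 at 2.25, Cldn16 at 2.43, Cldn19 at 2.01, Slc5a3 at 1.70, Slc9a3 at 1.53, Bsnd at 0.95 and Kcnj1 at 0.94. The named genes Pcsk6 at 2.77, Zcchc3 at 2.02, Fbxl7 at 1.89 and Wnt7b at 1.60 were above 0 too, as was Ephb2 at 1.54. Without the first P0 sample the calls of Cldn16 (2.47), Bsnd (0.89), Kcnj1 (0.87) and Zcchc3 (1.78) were lost, without the second that of Cldn16 (2.38), and without P56 sample 2 those of Cldn16 (1.95) and Bsnd (0.75).

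Genes of the distal convoluted tubule and of the other lists went both ways. Fxyd2 at 1.63, Defb1 at 1.22, Scnn1a at 1.14, Kcnj16 at 0.89, Slc16a7 at 0.71, Per1 at 0.69, Zbtb16 at 0.68, Nedd4l at 0.65 and Slc8a1 at 0.52 were above 0. Below 0 were Pvalb at −3.62, Calb1 at −1.77 and Trpm6 at −1.64. So were Nos1 of the macula densa list at −1.09, and Id3 at −0.94 and Sh3gl3 at −0.85 of the thin limb list. The named genes Adamtsl3 at −2.29, Lypd6 at −1.46, Sorcs1 at −1.45 and Emid1 at −1.27 were below 0 too. Without the first P0 sample the calls of Defb1 (1.52), Slc16a7 (0.62), Per1 (0.76), Zbtb16 (0.40), Slc8a1 (0.41), Id3 (−0.79) and Sh3gl3 (−0.68) were lost. Without the second, those of Defb1 (0.79), Kcnj16 (0.80), Per1 (0.61), Nedd4l (0.55), Slc8a1 (0.64), Id3 (−1.09) and Sh3gl3 (−1.04) were lost. Without P56 sample 2, those of Defb1 (1.18), Kcnj16 (0.85), Slc16a7 (0.68), Per1 (0.66), Zbtb16 (0.57), Slc8a1 (0.70), Pvalb (−3.72), Calb1 (−1.87), Nos1 (−0.81), Id3 (−0.76) and Sh3gl3 (−0.91) were lost. Slc8a1 (0.46) was also lost without P56 sample 1 and Sh3gl3 (−0.74) without P21 sample 1.

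Among transcription factors, Foxq1 at 1.69, Esrra at 0.74 and Tfcp2l1 at 0.53 were above 0. Gata3 at −2.09, Emx1 at −1.77, Tfap2a at −1.28 and Sall3 at −1.06 were below 0. The calls of Esrra (0.73, 0.75 and 0.66) and Tfcp2l1 (0.54, 0.52 and 0.48) were lost without the first P0 sample, without the second and without P56 sample 2, and those of Foxq1 (1.51) and Sall3 (−0.76) without the second P0 sample.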

How the results depend on the processing

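The block stands for the library that both clusters share. With no replicate block, 3249 peaks were higher in LOH and 2747 in DCT, and 589 and 553 genes, and 20 named peak values and 30 named gene values lost their call, none with a change of direction. DESeq2 called 1821 and 2049 peaks, 578 and 527 genes and 162 stage differences. With it 30 named peak values and 31 named gene values lost their call, and 23 of each did on thinned nuclei. Not each of these losses is named above. Thinning to 1000 open peaks left 347 and 444 peaks, 546 and 530 genes and 67 stage differences, and equal numbers of nuclei left 2304 and 2331 peaks, with fewer peaks tested in each. The start-site window called 930 and 848 genes. Fisher's exact test, without scaling for depth, called 16084 peaks higher in DCT and moved the median log2 fold change of all tested peaks from 0.05 to −0.32. Without 1 sample, peaks higher in LOH ranged from 2238 to 7196 and in DCT from 1797 to 6770, genes from 740 to 2098 and from 635 to 2265, and stage differences from 317 to 1867, lowest without P56 sample 2 and, for peaks and genes, highest without P21 sample 1. With a promoter of 2 kb, promoters made up 2.34% of the peaks higher in LOH and 2.34% of those higher in DCT, and distal peaks 27.7% and 29.2%.

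Of 1565 recomputed gene values, 1399 kept their direction and side of the threshold, 142 lost the call, 21 gained one and 3 turned. Of 1357 recomputed peak values, 1179 kept both, 139 lost the call, 23 gained one and 16 turned. Of 320 stage differences, 231 kept both and 89 lost the call. On thinned nuclei the start-site calls of Umod (0.85), Kcnj10 (−0.89) and Irx3 (1.47) and the activity call of Foxq1 (1.16) were lost as well. The 3 genes that turned did so in the start-site window, which leaves out the gene body: Wnk1 at 0.84, Esrrb at −3.52 and Egfr at 0.049. The 16 start-site peaks turned under Fisher's exact test: Cldn3 at −0.014, Epha7 at −0.27, Trpm7 at −0.36, Cnnm2 at −0.35, Slc16a7 at −0.29, Stk39 at −0.32, Oxsr1 at −0.23, Cul3 at −0.30, Atp2b1 at −0.31, Fkbp5 at −0.25, Per1 at −0.12, Esrra at −0.18, Tfcp2l1 at −0.25, Fgf9 at −0.30, Bmp7 at −0.31 and Ephb3 at −0.28.

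P21 DCT nuclei numbered 101, so 0 calls there allow a share of up to 2.97%.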

Other observations

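Several genes had many peaks that differed, and they are named here after their values were seen. Beside Slc12a1, Ephb2 and Egf, the gene Macrod1 had 14 of 33 tested peaks higher in LOH and 1 higher in DCT, and Prdm16, a chromatin regulator, had 13 and 3 of 29. Osbpl9, a lipid-binding protein, and Pitpnc1, a phospholipid transfer protein, had 11 of 20 and 11 of 17 higher in LOH. On the DCT side, Prkag2, a regulatory subunit of the energy sensor AMPK, had 12 of 18 tested peaks higher in DCT, Arhgef3, a guanine nucleotide exchange factor, 11 of 15, and Pde4d, a cyclic AMP phosphodiesterase, 11 of 27, with 1 peak higher in LOH in each of Arhgef3 and Pde4d.

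Genes with start-site peaks in opposite directions were Acin1, Arhgap32, Bcar3, Dop1b, Esrrb, Hoxa3, Rbm47, Shroom3, Wasf2 and Wnk1. In Dop1b, a peak over one start was open in 3.08% of LOH and 1.60% of DCT nuclei (log2 fold change 1.27) and a peak over another in 0.302% and 5.08% (−3.95), as means of 3 samples. Arhgap32, a GTPase-activating protein, had log2 fold changes of −1.51 and 0.59 at its starts, and Hoxa3, a homeobox gene, of −0.98 and 0.39.

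The peak at the end of Slc12a3 that varied among adult DCT samples was open in 56.9% and 56.1% of P0 DCT nuclei and in 6.30% and 5.37% of P0 LOH nuclei. In the adult connecting tubule it stood at 33.7%, 26.9% and 28.9%, and in the PCT cluster at 34.4%, 28.1% and 55.4%, in the order P21 sample 1, P56 sample 1 and P56 sample 2. The value of 83.4% in DCT nuclei of P56 sample 1 was the highest of those given here for it.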
